A study of Mus musculus with 6 samples.

Results

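The genes described here are the 39 genes of cholesterol and myelin lipid synthesis that were given as a named list, out of 37315 gene identifiers in each count file. The list held 8 enzymes of the mevalonate branch up to squalene, 10 enzymes from squalene to cholesterol, 7 regulators and efflux genes, 8 genes of fatty acid synthesis and 6 genes of sphingolipid synthesis. All 39 were found in the files, and each had more than 10 counts in every one of the 6 libraries. Levels are given as CPM, for which the counts of each library were scaled to the same total. The libraries were made from the hippocampus of C57BL/6J mice at 4 weeks of age and formed 3 pairs, each of a control and an altered library. In the first, Prrc2a flox/flox mice (f/f) were set beside Prrc2a flox/flox mice that also carried nestin-cre (Nestin-Cre), whose recombinase acts in neural progenitors and hence in neurons and glia. In the second, another f/f library was set beside Prrc2a flox/flox;Olig2-cre (Olig2-Cre), in which the recombinase is under the endogenous Olig2 promoter, so that these mice are also haploinsufficient for Olig2. The titles of both f/f control samples read Prrc2a WT, and the study describes Prrc2a f/f mice as controls of both lines. In the third, wild-type mice without a floxed allele (WT) were set beside mice with an Fto transgene (Fto Tg), which carries the mouse Fto coding sequence behind the ubiquitin C promoter. Prrc2a reads the RNA mark N6-methyladenosine, which Fto erases. Each group was 1 library, and whether it came from 1 mouse or from pooled mice was not stated in the labels.

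Cholesterol does not cross from the blood into the brain in useful amounts, so neural cells build their own from acetyl-CoA through mevalonate, squalene and lanosterol. Transcription of most of these enzymes is driven by the SREBP factors, which Scap carries out of the endoplasmic reticulum when sterol is low and which the Insig proteins hold back when sterol is high. Oligodendrocytes have the highest demand, because myelin is rich in cholesterol, very-long-chain fatty acids, galactosylceramide and sulfatide, and astrocytes supply further cholesterol to their neighbours on apolipoprotein E.

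Total counts ranged from 18616540 to 35482589 per library. Prrc2a stood at 433.6, 389.3 and 351.4 CPM in the f/f control of Nestin-Cre, the f/f control of Olig2-Cre and WT, against 183.8 CPM in Nestin-Cre, 346.1 in Olig2-Cre and 334.4 in Fto Tg. Fto stood at 147.3 to 158.2 CPM in the controls and at 354.2 CPM in Fto Tg. The Nestin-Cre library stood apart from the other 5, with 26.2% of its counts in mitochondrially encoded genes against 7.97% to 8.86%, and 26.1% in its 10 most abundant genes against 7.52% to 8.33%. Scaled by library totals, the median log2 ratio of all genes in the Nestin-Cre pair was -0.72. With the TMM factors of edgeR, which reset that median, it was -0.03. Values of the Nestin-Cre library given below without a named scaling are by library totals and hold that shift. The 5 genes typical of the hippocampus were present throughout, with Prox1 of the dentate gyrus at 105.0 to 117.3 CPM, but 4 of them differed between Nestin-Cre and its control. Neurod6 (869.2 against 181.9 CPM), Zbtb20 (748.6 against 368.8) and Dsp (70.4 against 47.2) were called higher there and Wfs1 (63.95 against 195.9) lower.

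In the 3 controls, the members spanned a wide range of levels. Per kilobase of exon, Apoe, the main lipid carrier of the brain, was the highest at a mean of 582 CPM per kb, ahead of the desaturase Scd2 at 275.0 and Hmgcs1, which makes HMG-CoA, at 82.0. Lss, the lanosterol synthase, was the lowest at 3.53 CPM per kb. The SD of the log2 level over the 3 controls had a median of 0.10 over the members and ran from 0.02 for Tm7sf2 and Sptlc2 to 0.22 for Elovl5. The summed level of the 39 genes was 5433, 5491 and 5444 CPM in the 3 controls, 5706 in Olig2-Cre and 5460 in Fto Tg, but 2950 in Nestin-Cre. Among all genes, the read test (an MA-plot test on the reads of 2 libraries, called at a false discovery rate below 0.001 and a fold of at least 1.2) called 13.1% when both f/f controls were compared, 17.3% for WT over the f/f control of Nestin-Cre, and 7.20% for WT over that of Olig2-Cre. In these comparisons of controls it called 3, 3 and 2 of the 39 members, which were Mvk, Insig1, Abca1, Fasn, Elovl5 and Elovl6.

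**Figure D1:**
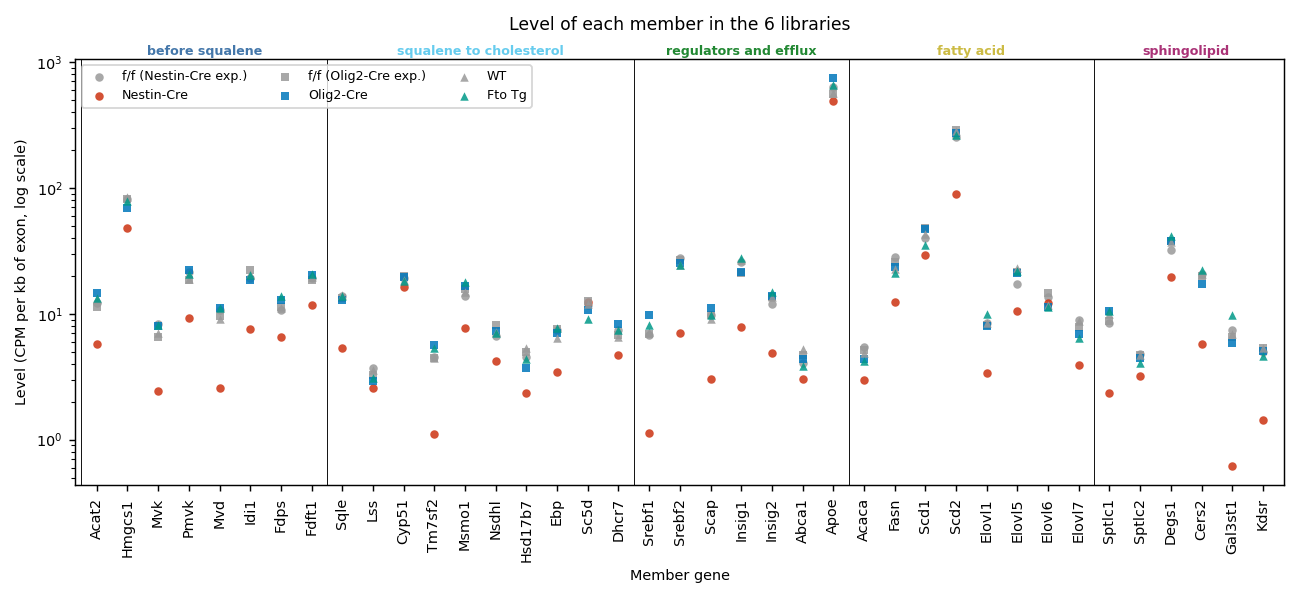
Level of each of the 39 members in the 6 libraries, in CPM per kilobase of exon on a log axis, with 1 point per library and members ordered by branch. The Nestin-Cre points lie lowest for 37 of the 39 genes, Sc5d and Elovl6 being the exceptions, while the other 5 libraries lie close together.

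Each altered library was then compared with the control of its own pair. A log2 ratio below 0 means a lower level in the altered library, and its counting error (SE) covers the sampling of reads only. With 1 library per group, the read test compares 2 libraries and not 2 genotypes. In a tissue, fewer cells of a type and less RNA per cell cannot be told apart.

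In the Nestin-Cre pair, 36 of the 39 members were called lower, none was called higher and 3 were not called. This was beside a background of 53.4% of all 18170 genes called lower and 11.5% called higher. The members' median log2 ratio was -1.10 against the -0.72 of all genes, and 26 of the 39 lay below the median of all genes. With TMM factors, 21 members were called lower and 4 higher, where the background was 29.8% and 28.4%, and the medians were -0.41 for the members and -0.03 for all genes. After a further adjustment for GC content and length the counts were 20 lower and 4 higher, where the background was 26.9% and 28.5%, with a median of -0.31 against 0.02. Acat2, Mvd, Ebp, Fasn and Elovl1 were called lower by library totals and with TMM but were not called after that adjustment. Pmvk was called lower by library totals (-1.22) and with TMM (-0.53) but higher after it (0.34). The 4 members called higher with TMM were Cyp51, Sc5d, Apoe and Elovl6, and those called higher after the GC and length adjustment were Pmvk, Cyp51, Sc5d and Apoe, all named after their values were seen. The median of the branches was lowest for sphingolipid synthesis (-1.82) and for regulators and efflux (-1.68), and was -1.15 before squalene, -1.03 for fatty acid synthesis and -0.75, close to all genes, from squalene to cholesterol.

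**Figure D2:**
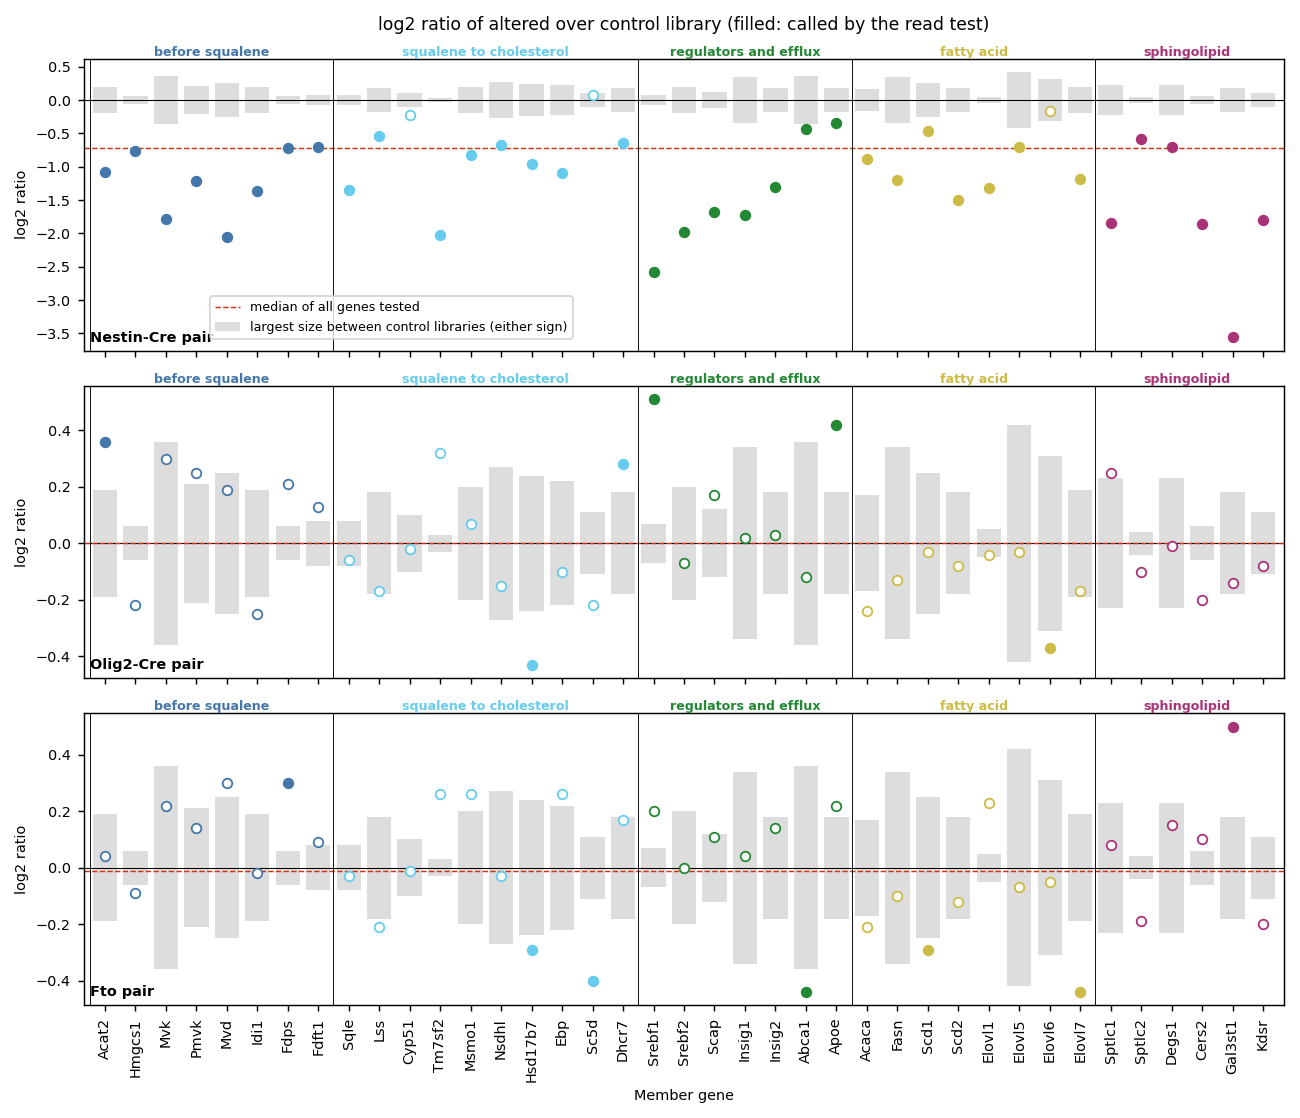
log2 ratio of each member (altered over control library, library totals) in the 3 pairs. Filled points were called by the read test, the grey bars span the largest difference between any 2 control libraries in either direction, and the dashed line is the median of all genes, which lies at -0.72 in the Nestin-Cre pair and near 0 in the other pairs.

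Between Olig2-Cre and its f/f control, 2 members were called lower, Hsd17b7 and Elovl6, and 4 higher, Acat2, Dhcr7, Srebf1 and Apoe. Among all 17742 genes 6.91% were called lower and 4.95% higher, so that the members' shares were of the same order as the background. Their median log2 ratio was -0.04, where that of all genes was at 0. In the Fto pair, 5 members were called lower, Hsd17b7, Sc5d, Abca1, Scd1 and Elovl7, and 2 higher, Fdps and Gal3st1, where 8.51% of all 18051 genes were called lower and 6.97% higher, and the median was 0.04. With the GC and length adjustment the calls of Acat2 and Apoe were lost in the Olig2-Cre pair, and those of Hsd17b7, Scd1 and Gal3st1 in the Fto pair. The same adjustment added a lower call of Cers2 in the Olig2-Cre pair and a higher call of Msmo1 in the Fto pair. The calls did not hold against the spread of the 3 controls. With edgeR's quasi-likelihood test of 1 altered library against the 3 controls, which are 2 f/f libraries and 1 WT library, no member passed in the Olig2-Cre or the Fto comparison. Across all genes the same test called 0 (0.00%) for Olig2-Cre and 4 (0.0224%) for Fto Tg. With edgeR's exact test at the dispersion of the controls 58 (0.327%) and 103 (0.571%) genes were called in these pairs, again without a member. For Nestin-Cre, 35 members were called by the quasi-likelihood test, where 59.4% of all genes were called, and 31 by the exact test, where 55.3% were, both on library totals.

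Before squalene, all 8 enzymes were called lower in the Nestin-Cre pair by library totals, and 5 with TMM. With the GC and length adjustment 3 were called lower and 1 higher. Of all genes, 53.4% were called lower by library totals, 29.8% with TMM and 26.9% with that adjustment, which called 28.5% higher. By library totals, 6 of the 8 had a log2 ratio above 0 in the Olig2-Cre pair and 6 in the Fto pair. Mvd, which decarboxylates mevalonate diphosphate, stood at 19.9, 17.9 and 16.8 CPM in the 3 controls (in the order f/f control of Nestin-Cre, f/f control of Olig2-Cre, WT, which is kept below) and at 4.78, 20.5 and 20.7 CPM in Nestin-Cre, Olig2-Cre and Fto Tg (also kept below). The Nestin-Cre level was 0.241 times that of its control, a log2 ratio of -2.06 ± 0.12 (SE), while both other altered libraries lay above all 3 controls. With the GC and length adjustment the Nestin-Cre ratio of Mvd was -0.31 and no longer called. Hmgcs1, which condenses acetyl groups into HMG-CoA, went the other way in Olig2-Cre and Fto Tg, with 372, 371 and 387 CPM in the controls and 218, 319 and 363 CPM in the altered libraries. Its level was thus below all 3 controls in each altered library, with log2 ratios of -0.77, -0.22 and -0.09. In the Nestin-Cre pair that ratio lay at the median of all genes, and it was -0.08 with TMM. Acat2, the cytosolic thiolase that makes acetoacetyl-CoA, was called higher in Olig2-Cre (0.36 ± 0.07) and lower in Nestin-Cre (-1.08). Fdps, the farnesyl diphosphate synthase, was called higher in Fto Tg (0.30 ± 0.05), but 26.7% of its exon bases overlap another annotated gene, Gm43738, on the same strand. Of the others, the mevalonate kinase Mvk and the phosphomevalonate kinase Pmvk had Nestin-Cre ratios of -1.78 and -1.22. The isomerase Idi1 was at -1.36 and the squalene synthase Fdft1 at -0.70, near the median of all genes. With TMM these ratios were -1.09, -0.53, -0.67 and -0.01. With the GC and length adjustment Pmvk was called higher (0.34).

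The promoters of the sterol enzymes were looked up because SREBP acts together with the factors NF-Y and Sp1 on this pathway. RefSeq promoter windows of the GRCm38.p6 assembly, from 250 bases before to 50 bases after the start, were found for 34 of the 39 members and were searched on both strands. The sterol regulatory element TCACNCCAC was present in 1 of the 34, Hmgcs1, and in at least 1 window of 1.44% of the 27025 genes searched. It is shown here with the element in capitals, on the + strand, beginning 137 bases before the start at chr13:119690204-119690232.
Hmgcs1: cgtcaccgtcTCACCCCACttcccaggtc
The NF-Y box CCAAT was present in 25 of the 34 (73.5%) against 41.1% of all genes and 42.3% of the 12156 genes expressed here. The Sp1 box GGGCGG was present in 76.5% against 65.3% of expressed genes, and the E-box CACGTG in 26.5% against 11.0%. All 9 members from squalene to cholesterol with a window held both CCAAT and GGGCGG. Their CCAAT nearest to the start is printed in capitals, in the direction of the gene, so that ATTGG is a box on the other strand. It began between 62 and 12 bases before the start in 8 of them and 8 bases after it in Nsdhl.
Lss (chr10:76531533-76531557): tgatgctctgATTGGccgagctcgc
Cyp51 (chr5:4104712-4104736): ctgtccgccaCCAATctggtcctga
Tm7sf2 (chr19:6067883-6067907): cccagcgctgATTGGctactgtgct
Msmo1 (chr8:64733619-64733643): gtggggcggaCCAATtacgacaggc
Nsdhl (chrX:72918519-72918543): gtgagcgtcaATTGGttgcgccaga
Hsd17b7 (chr1:169969203-169969227): ccgagccttgATTGGtcgaggtgcg
Ebp (chrX:8193553-8193577): ccctgtactgATTGGttcgtcagat
Sc5d (chr9:42264310-42264334): ccggctgctgATTGGccggctgcct
Dhcr7 (chr7:143830155-143830179): tccacttccgATTGGtcgtctgtga
Whether the motifs of these 9 genes relate to their levels was not tested. A match in a window is a description of the letters and not evidence of binding.

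From squalene to cholesterol, Nestin-Cre ratios ran from -2.02 to 0.08. Of the 10 enzymes, 8 were called lower in the Nestin-Cre pair, while Cyp51, the lanosterol demethylase, and Sc5d, a sterol desaturase, were not called. By library totals 53.4% of all genes were called lower. With TMM, 3 of the 10 were called lower and 2 higher, beside 29.8% and 28.4% of all genes. Tm7sf2, a sterol reductase that shares its step with the lamin B receptor, stood at 20.1, 19.8 and 19.6 CPM in the controls and 4.92, 24.7 and 23.5 CPM in the altered libraries. The controls agreed within 0.43 CPM, the Nestin-Cre level was 0.246 times its own control (-2.02 ± 0.12, -1.34 with TMM), and both other altered libraries lay above the controls. Of its exon bases 12.1% overlap Vps51, so that part of its reads could not be assigned to it. Sc5d stood at 56.8, 61.2 and 58.5 CPM in the controls and 60.1, 52.5 and 44.2 CPM in the altered libraries. Its level in Nestin-Cre lay within the control range, although most genes of that library were lower, and in Olig2-Cre and Fto Tg it lay below all controls, with the Fto pair called lower (-0.40 ± 0.05). Cyp51 was 84.5 CPM in the f/f library and 72.4 CPM in Nestin-Cre, or -0.22 on the log2 scale, and 0.46 with TMM. Hsd17b7 (chr1:169949535-169969241, - strand, mm10), a sterol ketoreductase, stood at 23.3, 25.5 and 27.5 CPM in the controls and 12, 18.9 and 22.4 CPM in the altered libraries. It was the only member called lower in all 3 pairs, with -0.96 ± 0.09, -0.43 ± 0.09 and -0.29 ± 0.08, and it lay below every control in each altered library under library totals and TMM alike. With TMM, its calls in the Nestin-Cre and Fto pairs were lost. How many of all genes were called lower in all 3 pairs was not counted. Lss, with 40.3, 35.4 and 38.4 CPM in the controls and 27.7, 31.4 and 33.2 CPM in the altered libraries, was below all controls in each, but in Nestin-Cre it was above them with TMM. Dhcr7, the reductase of the last step, was called lower in Nestin-Cre (-0.65) and higher in Olig2-Cre (0.28 ± 0.06). The remaining enzymes, Sqle, Msmo1, Nsdhl and Ebp, had Nestin-Cre ratios between -1.35 and -0.67 and were not called in the other pairs by library totals. In the Fto pair Msmo1 was at 0.26, and it was called higher with TMM (0.28) and with the GC and length adjustment (0.36).

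The regulators were lower in Nestin-Cre as a group. Srebf1 (chr11:60199089-60222581, - strand, mm10), whose SREBP product chiefly drives fatty acid genes, stood at 38.2, 38.7 and 40.0 CPM in the controls and 6.36, 55.2 and 46.0 CPM in the altered libraries. The controls lay within 1.78 CPM of each other, the Nestin-Cre library far below (-2.58 ± 0.10, adjusted p 2.58e-192 by the read test), and Olig2-Cre and Fto Tg above all of them. The Olig2-Cre ratio of 0.51 ± 0.06 was the largest of any member in that pair and was called under library totals, TMM and the GC and length adjustment. Srebf2, whose product drives sterol genes, stood at 199, 191 and 174 CPM in the controls and 50.3, 182 and 174 CPM in the altered libraries, and was low only in Nestin-Cre (-1.98 ± 0.04). Scap, the escort of SREBP, was below all controls in Nestin-Cre and above them in Olig2-Cre without a call, with 72.7, 73.2 and 67.2 CPM against 22.8, 82.2 and 72.6 CPM. Insig1 stood at 80.0, 65.4 and 82.9 CPM and 24.3, 66.2 and 85.4 CPM, and the f/f libraries themselves were called different for it. Insig2 stood at 41.7, 46.8 and 47.0 CPM and 16.8, 47.8 and 51.9 CPM. These 5 regulators had Nestin-Cre ratios from -2.58 to -1.31 by library totals, and all 5 were also called lower with TMM (-1.90 to -0.62) and with the GC and length adjustment (-1.25 to -0.36). Of all genes, 53.4%, 29.8% and 26.9% were called lower in the same order.

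The efflux genes differed from the regulators. Apoe (chr7:19696109-19699188, - strand, mm10) stood at 1341, 1187 and 1205 CPM in the controls and 1054, 1587 and 1399 CPM in the altered libraries. Olig2-Cre (0.42 ± 0.01) and Fto Tg (0.22 ± 0.01) were above every control, while in Nestin-Cre Apoe was lower by library totals (-0.35) and higher with TMM (0.34) and with the GC and length adjustment (1.41). That adjustment left 0.22, not called, in Olig2-Cre and -0.02 in Fto Tg. Abca1, the exporter that loads cholesterol onto apolipoproteins, stood at 42.2, 49.2 and 54.2 CPM in the controls and 31.2, 45.3 and 40.0 CPM in the altered libraries. It was called lower in the Nestin-Cre pair (-0.44, 0.25 and not called with TMM) and in the Fto pair (-0.44 ± 0.05), but the controls themselves ran from 42.2 to 54.2 CPM, and Fto Tg was only 2.21 CPM below the lowest of them.

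In fatty acid synthesis, all 8 members had a log2 ratio below 0 in the Olig2-Cre pair and 7 of 8 in the Fto pair, by a median of -0.10 and -0.11. Of them, 1 and 2 were called lower, beside 6.91% and 8.51% of all genes. Acaca, the acetyl-CoA carboxylase that commits carbon to fatty acids, stood at 93.2, 88.5 and 83.0 CPM in the controls and 50.8, 75.2 and 71.8 CPM in the altered libraries, below all controls in each. Fasn, the fatty acid synthase, was called lower in Nestin-Cre (-1.20 ± 0.03) and not in the other pairs, and the Nestin-Cre ratio was -0.13 and not called with the GC and length adjustment. Elovl7, an elongase of long-chain acyl groups, stood at 35.8, 31.4 and 35.2 CPM and 15.8, 27.8 and 26.0 CPM, again below all controls in each altered library, and was called lower in the Nestin-Cre (-1.18 ± 0.07) and Fto (-0.44 ± 0.07) pairs. Elovl6, which elongates palmitate, was the exception in Nestin-Cre. It stood at 87.7, 93.9 and 75.8 CPM and 78.1, 72.4 and 73.2 CPM, with no call in Nestin-Cre (-0.17) and a lower call in Olig2-Cre (-0.37 ± 0.05). In Nestin-Cre it was called higher with TMM (0.52). Of its 3 control levels, that of the Olig2-Cre pair was the highest, and WT lay 3.42 CPM above Olig2-Cre. Elovl1, an elongase of very-long-chain acyl groups, split the altered libraries, with 22.9, 22.3 and 23.1 CPM in the controls and 9.15, 21.7 and 27.2 CPM in the altered libraries, so that Olig2-Cre lay below and Fto Tg above all controls without a call in either pair. Of the stearoyl-CoA desaturases, Scd2 fell by 1.5 on the log2 scale in Nestin-Cre and Scd1 by 0.47, the latter becoming 0.22 with TMM. In Fto Tg, Scd1 was called lower (-0.29 ± 0.03). Scd1 and Scd2 are close paralogs, and reads that matched both were not counted. Elovl5, an elongase of polyunsaturated acyl groups, fell by 0.70 on the log2 scale in Nestin-Cre, near the median of all genes.

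In sphingolipid synthesis, all 6 members were called lower in Nestin-Cre by library totals, 4 with TMM and 5 with the GC and length adjustment. Of all genes, 53.4%, 29.8% and 26.9% were called lower in the same order. Gal3st1 (chr11:3983636-3999326, + strand, mm10), the sulfotransferase that makes the myelin lipid sulfatide, showed the largest ratio of the 39 genes in the Nestin-Cre pair and also the largest in the Fto pair, in opposite directions. It stood at 15.1, 13.3 and 14.2 CPM in the controls and 1.27, 12.03 and 20.1 CPM in the altered libraries. The Nestin-Cre level rested on 44 counts and was 0.085 times its control (-3.56 ± 0.23, -2.87 with TMM and -1.79 with the GC and length adjustment), Olig2-Cre lay just below all controls (-0.14 ± 0.12, not called), and Fto Tg lay above all of them (0.50 ± 0.09, called). With the GC and length adjustment the Fto ratio of Gal3st1 was 0.26 and not called. Cers2, the ceramide synthase of very-long-chain species, stood at 76.0, 72.8 and 76.0 CPM in the controls and 20.97, 63.4 and 81.6 CPM in the altered libraries. It had the same order as Gal3st1, with Nestin-Cre lowest (-1.86 ± 0.06), Olig2-Cre below the controls (-0.20 ± 0.05) and Fto Tg above (0.10 ± 0.04). By library totals only the Nestin-Cre ratio was called. With the GC and length adjustment the Olig2-Cre ratio of Cers2 was -0.26 and called lower. Sptlc2, a catalytic subunit of serine palmitoyltransferase at the entry of the pathway, stood at 39.1, 38.5 and 37.9 CPM and 26.2, 35.9 and 33.2 CPM, below all controls in each altered library, but above them in Nestin-Cre with TMM. Sptlc1, the partner subunit, did not follow it, with log2 ratios of -1.85, 0.25 and 0.08 against -0.58, -0.10 and -0.19 for Sptlc2. Kdsr, the reductase of the following step, and Degs1, the dihydroceramide desaturase, had Nestin-Cre ratios of -1.80 and -0.71. For Degs1 this was near the median of all genes, and its ratio was -0.02 and not called with TMM.

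Set against the range of the 3 controls, 37 members lay below it in Nestin-Cre and 2 within it, where 70.9% of all 16607 genes lay below and 17.5% above. With TMM, 28 members lay below, 4 within and 7 above, where the background was 44.7% below and 40.3% above. In Olig2-Cre, 13 members lay below, 13 within and 13 above the controls, with backgrounds of 30.1% and 29.2%. In Fto Tg, 13 lay below, 10 within and 16 above, with backgrounds of 29.8% and 28.9%. Below all controls in each of the 3 altered libraries were Hmgcs1, Lss, Hsd17b7, Acaca, Elovl7 and Sptlc2. With TMM these were Hmgcs1, Hsd17b7, Acaca and Elovl7, and Apoe was then above all controls in each. No member lay above the controls in Olig2-Cre and below them in Fto Tg, while Elovl1, Cers2 and Gal3st1 lay below them in Olig2-Cre and above them in Fto Tg under both scalings. The share of all genes with these joint patterns was not counted, so the patterns are given as descriptions.

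The Olig2-Cre and Fto pairs share no library, and their values can be set side by side. Of the 39 members, 18 (46.2%) were below 0 in both pairs and 15 (38.5%) above 0 in both, against 35.3% and 34.1% of 17352 genes tested in both. The remaining 6 (15.4%) were below 0 in the Olig2-Cre pair and above 0 in the Fto pair, beside 15.2% of all genes. None was the other way round, beside 15.5% of all genes. Hsd17b7 was called lower in both, and no member was called in both otherwise. Among the 17352 genes, 679 were called lower in both pairs and 408 higher in both. The branches divided, with 7 of 8 fatty acid genes and 6 of 10 enzymes after squalene below 0 in both pairs, and 6 of 8 enzymes before squalene above 0 in both. The median log2 ratio before squalene was 0.20 in the Olig2-Cre pair and 0.12 in the Fto pair, and 0.06 and 0.03 with the GC and length adjustment. With that adjustment the fatty acid medians were -0.06 and -0.05, with 8 and 5 of 8 genes below 0, and of the 10 enzymes after squalene 7 were below 0 in the Olig2-Cre pair but 6 were above 0 in the Fto pair.

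**Figure D3:**
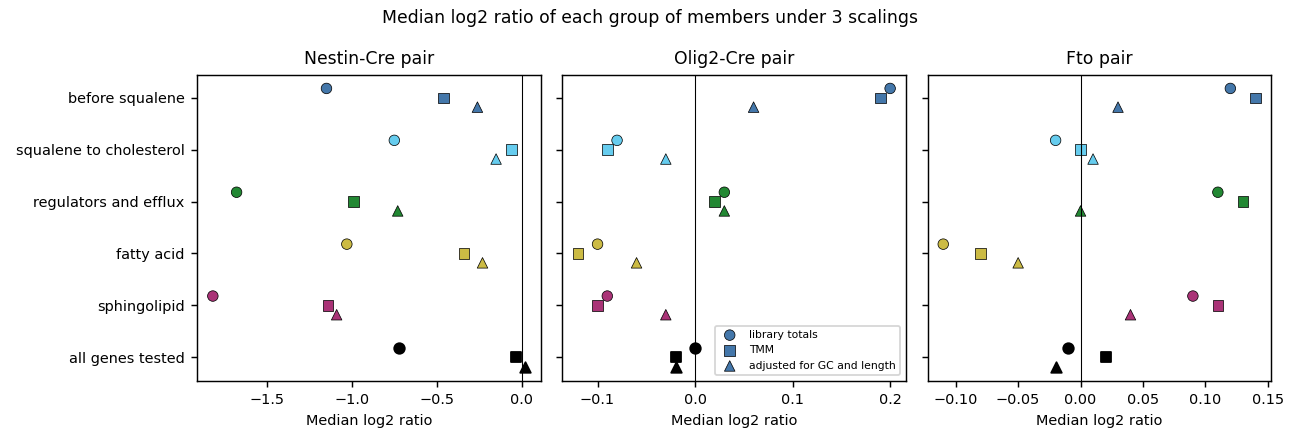
Median log2 ratio of each of the 5 branches and of all genes tested in the 3 pairs, under library totals (circles), TMM (squares) and the adjustment for GC content and length (triangles), each panel with its own x axis. Sphingolipid synthesis and the regulators with efflux lie lowest in the Nestin-Cre pair under all 3, at -1.14 and -0.99 with TMM.

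The ratios moved with base composition. Over the 39 members, Spearman's rho between GC content and log2 ratio was 0.54 in the Olig2-Cre pair and 0.61 in the Fto pair, where it was 0.33 and 0.36 over all genes, and -0.40 in the Nestin-Cre pair (-0.43 over all genes). Comparisons of controls gave rho of -0.57, -0.56 and -0.04 over the members. Genes of 1 library share its depth and its base composition bias, and these values are given as descriptions. The GC content of the members ran from 41.7% for Kdsr to 59.5% for Apoe and Gal3st1. The part of base composition in the single ratios was not tested beyond the adjustment given above.

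**Figure D4:**
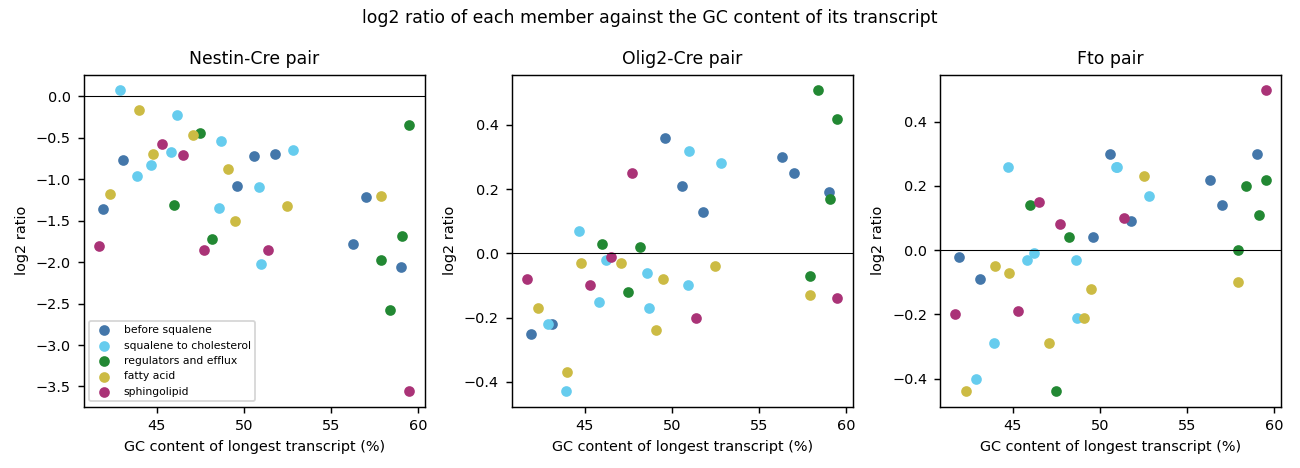
log2 ratio of each member against the GC content of its longest transcript (%), 1 point per gene, coloured by branch, in the 3 pairs. The points climb with GC content in the Olig2-Cre (rho 0.54) and Fto (rho 0.61) pairs and fall in the Nestin-Cre pair (rho -0.40).

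The other 43 genes of the same pathways, which are not on the list, were counted for comparison. In the Nestin-Cre pair 36 were called lower and 3 higher, with a median of -0.96, beside 53.4% and 11.5% of all genes, and with TMM 22 lower and 6 higher, beside 29.8% and 28.4%. In the Olig2-Cre pair 5 were called lower and 2 higher, and in the Fto pair 2 lower and 2 higher, beside 6.91% and 4.95%, and 8.51% and 6.97%, of all genes. Among those called lower in the Nestin-Cre pair were the acid sphingomyelinase Smpd1 (-2.41) and Ormdl3 (-2.41), a brake on serine palmitoyltransferase. Those called lower in the Olig2-Cre pair included Ggps1 (-0.43), the geranylgeranyl diphosphate synthase, and Ugt8a (-0.39), which makes the galactosylceramide that Gal3st1 sulfates. In the Fto pair they were Soat1 (-0.46), which esterifies cholesterol, and Stard4 (-0.36), a sterol carrier.

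Markers of several cell types moved as well. The summed level of 12 genes of mature oligodendrocytes was 9037 to 10480 CPM in the controls, 7086 in Nestin-Cre, 7160 in Olig2-Cre and 12050 in Fto Tg, with no marker at 0. Of these 12, 8 were called lower in the Olig2-Cre pair beside 6.91% of all genes, and all were below 0 (median -0.32), where the members had a median of -0.04. In the Fto pair 4 were called higher, beside 6.97% of all genes, and 11 were above 0 (median 0.25). With TMM 6 were called higher in the Fto pair (median 0.28). With the GC and length adjustment only 2 were called higher there, and 10 were above 0 (median 0.22). In the Nestin-Cre pair 9 were called lower and 1 higher (median -1.39), beside 53.4% and 11.5% of all genes, with TMM 7 and 4 (median -0.71), and with the GC and length adjustment 8 and 4 (median -0.75). Of 8 markers of oligodendrocyte progenitors, 4 were called lower and 1 higher in the Olig2-Cre pair (median -0.29), beside 6.91% and 4.95% of all genes. In the Nestin-Cre pair 7 were called lower (median -1.18, -0.49 with TMM and -0.15 with the GC and length adjustment). Their calls in the Fto pair went in both directions. Choroid plexus markers, 6 genes, summed to 1646 to 2870 CPM in the controls and to 267.9 CPM in Nestin-Cre, 3415 in Olig2-Cre and 692.9 in Fto Tg, with no marker at 0. Astrocyte markers, 8 genes, summed to 5278 to 5444 CPM in the controls and to 5793, 5022 and 4842 CPM in the altered libraries. Slc1a2, the most abundant of them, fell from 3281 to 2519 CPM in the Olig2-Cre pair and from 3164 to 2431 in the Fto pair, whereas 6 of the 8 were above 0 in each of these pairs (medians 0.04 and 0.11) and Gfap was called higher in both. The part of cell composition in the members' ratios was not tested.

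The 1 comparison with replicates set both Cre libraries against both f/f libraries, although the lines delete Prrc2a in different cells. With edgeR's quasi-likelihood test, 0.00% of 16921 genes and 0 of 39 members were called at a false discovery rate of 0.05, with 143 genes and no member at an unadjusted p below 0.05, while DESeq2 called 3 genes and no member. The median log2 ratio of the members was -0.23, 27 of the 39 were below 0, and the lowest adjusted p was 0.955. The biological coefficient of variation was 0.399 in this contrast and 0.133 over the 3 controls. Without the Olig2-Cre library, 21 members were called, among 8480 genes of 17747 called in all, and without the Nestin-Cre library none was called and the median was -0.01. The lone Cre library left in such a fit is assumed to vary like the f/f libraries.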

How the data were processed

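Each deposited file was a table of raw counts per Ensembl gene. The authors used Cutadapt and Trimmomatic for trimming, TopHat for alignment to mm10 and the union mode of HTSeq, unstranded, for counting, so that reads in overlapping genes or matching close paralogs were not counted. The submitters' notes name TopHat2 2.0.9 and HTSeq 0.6. Reads were paired-end according to the study, while the labels allow either mode.

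Gene names, exon lengths and coordinates came from GENCODE M21 on GRCm38, the assembly of mm10. The main comparison, as in the study, was the MA-plot read test of DEGseq, programmed in Python 3.11.15, on pairs of libraries scaled by total counts, with 0.5 added, for genes whose counts summed to 10 or more in both libraries together. Calls needed a Benjamini-Hochberg false discovery rate below 0.001 and a fold of at least 1.2. Contrasts with replicates used edgeR 4.0.16 (quasi-likelihood test) and DESeq2 1.42.0 at a false discovery rate of 0.05. The scripts were tested on simulated data. Alternatives were TMM and DESeq2 scaling, totals without mitochondrial genes, adjustment for GC content and length, other count limits, other controls and leaving out each library. The members and the gene lists were chosen with earlier results of these data known.

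Values were printed in every library for the 4 called members with the largest ratio in each pair, the members outside the range of the controls on 1 side in all altered libraries or on opposite sides in Olig2-Cre and Fto Tg, the regulators and efflux genes, and the members highest and lowest per kilobase. Intervals and errors from counts cover counting error only. Single values of some genes outside the list are not reported here.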

Additional observations from a re-analysis of the deposited data

Results flagged for a closer look

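4 members were called in opposite directions in the 2 experiments that delete Prrc2a. By library totals, 53.4% of all genes and 36 of the 39 members were called lower in the Nestin-Cre pair. A member called higher in the Olig2-Cre pair was therefore likely to be flagged. The share of all genes called in opposite directions was not counted. On the log2 scale, Acat2 was at -1.08 in the Nestin-Cre pair and 0.36 in the Olig2-Cre pair, Dhcr7 at -0.65 and 0.28, Srebf1 at -2.58 and 0.51, and Apoe at -0.35 and 0.42. With 1 library per group, the difference between the experiments was not tested. With TMM, Acat2 (-0.40) and Srebf1 (-1.90) remained called lower in the Nestin-Cre pair, whereas Dhcr7 (0.03) was not called and Apoe (0.34) was called higher. With the GC and length adjustment, Srebf1 kept opposite calls, -1.25 and 0.47, Acat2 lost both (-0.21 and 0.25), Dhcr7 was not called in the Nestin-Cre pair (0.18), and Apoe was called higher there (1.41) and not in the Olig2-Cre pair (0.22). With edgeR's quasi-likelihood test against the 3 controls, none of the 4 was called in the Olig2-Cre comparison.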

How the results depend on the processing

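The precision of each ratio rests on 1 library per group. The SE covers the sampling of reads, and variation between libraries was seen only through the 3 controls. These come from different experiments and differ in genotype, so their spread does not measure variation between mice alone. Of 280 recomputed counts and medians of the members, 219 stayed within 1.5 times or within 1 control SD (0.10), and 61 did not; where a change is given below, its cause was not tested beyond what the alternative itself alters.

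In the Nestin-Cre pair, TMM gave 21 members called lower and 4 higher with medians of -0.41 (all members), -0.46 (before squalene), -0.06 (squalene to cholesterol), -0.99 (regulators and efflux), -0.34 (fatty acid) and -1.14 (sphingolipid). DESeq2 size factors gave 21 lower and 5 higher with medians of -0.38, -0.43, -0.03, -0.96, -0.31 and -1.11 in the same order. The GC and length adjustment gave 20 lower and 4 higher with medians of -0.31, -0.26, -0.15, -0.73, -0.23 and -1.09. Totals without mitochondrial genes gave 1 member called higher and medians of -0.78, -0.83, -0.43, -1.36, -0.71 and -1.50. Against the other f/f library the medians were -1.0 before squalene, -0.99 from squalene to cholesterol and -1.47 for regulators and efflux, and against the mean of the 3 controls, as in edgeR's quasi-likelihood fit against them, -0.87 from squalene to cholesterol.

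Members whose Nestin-Cre log2 ratio changed sign with TMM were Lss (0.15), Cyp51 (0.46), Nsdhl (0.02), Dhcr7 (0.03), Abca1 (0.25), Apoe (0.34), Scd1 (0.22), Elovl6 (0.52) and Sptlc2 (0.11). With DESeq2 size factors they were Fdft1 (0.02), Lss (0.18), Cyp51 (0.49), Nsdhl (0.05), Dhcr7 (0.06), Abca1 (0.28), Apoe (0.37), Scd1 (0.25), Elovl5 (0.01), Elovl6 (0.55), Sptlc2 (0.14) and Degs1 (0.01). With the GC and length adjustment they were Pmvk (0.34), Fdps (0.06), Fdft1 (0.16), Cyp51 (0.29), Dhcr7 (0.18), Apoe (1.41), Scd1 (0.06) and Elovl6 (0.12, not called under either setting). In the Olig2-Cre pair, the other f/f control reversed Insig1 (-0.27) and Elovl5 (0.30), counting only members called with either control.

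In the Olig2-Cre pair, DESeq2 size factors gave 7 members called higher and the GC and length adjustment 2, with a median before squalene of 0.06. Against the other f/f library 6 members were called lower, and the medians were 0.04 before squalene and 0.18 for regulators and efflux. In the Fto pair, TMM gave 4 members called higher, DESeq2 size factors 3 lower and 4 higher, and the GC and length adjustment 3 lower with a median of 0.00 for regulators and efflux. Against the mean of the 3 controls, and in the quasi-likelihood fit against them, the fatty acid median of the Fto comparison was -0.25. edgeR's exact test at the control dispersion and its quasi-likelihood test against 3 controls called 0 members lower and 0 higher in both pairs. A count of 5 added, no minimum count and a minimum of 100 counts changed no call of a member.

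For both Cre libraries against both f/f libraries, library totals gave a member median of -0.43. Leaving out 1 library gave 0 to 21 members called and medians from -0.38 to -0.01, the 21 and the -0.38 without the Olig2-Cre library and the -0.01 without the Nestin-Cre library. With the experiment as a replicate block, which pairs each Cre library with the f/f library of its experiment, 0 members and 2 genes were called, the member median was -0.25, and 1 member had an unadjusted p below 0.05.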
